A study of Mus musculus with 6 samples.

Results

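The ATF4 amino acid stress genes described here are 10 genes: the transcription factors Atf4, Atf5 and Ddit3, the pseudokinase Trib3, the glutathione-degrading enzyme Chac1, asparagine synthetase (Asns), and the serine and one-carbon enzymes Phgdh, Psat1, Shmt2 and Mthfd2. They were taken by symbol from the 22180 genes of the array, each gene being read from its brightest probe set that carried 1 gene symbol. All 10 were found, and each had a single such probe set. The cells were KP1, an established line of mouse small cell lung cancer that came from a tumor model lacking Rb, p53 and p130. Cells were transfected with a vector carrying the intracellular domain of Notch1 (Notch1-ICD) joined to GFP through an ires (N1ICD, 3 arrays), or with the empty ires-GFP vector (control, 3 arrays). GFP+ cells of both groups were sorted 48 hours after transfection, and total RNA was hybridised to Affymetrix Mouse Gene 2.0 ST arrays, 1 per sample. The labels call the 3 samples of a group biological replicates and say no more about their source, so the p-values measure the spread between these samples in 1 cell line. The promoter that drives the insert and the species of the insert are not given in the sources used here.

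ATF4 is the effector of the integrated stress response. When amino acids run short or unfolded proteins gather in the endoplasmic reticulum, kinases phosphorylate the initiation factor eIF2 alpha, most translation slows, and the Atf4 mRNA is translated better. The ATF4 protein then pairs with C/EBP and other bZIP factors at C/EBP-ATF response elements and switches on genes for amino acid synthesis, amino acid import and tRNA charging. Because this control acts largely on translation and protein stability, mRNA arrays record the targets of the pathway more directly than the activity of ATF4 itself.

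As checks on the arrays, Notch1 measured 8.07, 7.49 and 7.72 (log2 expression as summarised by RMA, a method that normalises arrays to each other, replicates 1, 2 and 3) in N1ICD cells, against 6.35, 6.20 and 5.96 in control cells (log2 change 1.59 ± 0.17 SE, limma adjusted p = 0.000889). The neuroendocrine marker Chga lay between 12.34 and 12.55 in N1ICD cells and between 11.68 and 12.01 in control cells. The median over genes was 6.19 to 6.24 in N1ICD arrays and 6.14 to 6.20 in control arrays. Of 9 measured neuroendocrine markers 2 rose, Chga (0.64) and Ncam1 (0.53), and 1 fell, Insm1 (-0.89). Over all genes 3.82% rose and 3.27% fell. Of 15 fibroblast, macrophage and endothelial markers 3 rose and 1 fell, and their summed linear level was 1886 to 2413 in N1ICD arrays and 1325 to 1414 in control arrays. Their median log2 change was -0.01, with a lower mean for 8 and a higher mean for 7. The rises were the endothelial receptors Kdr (3.04) and Tek (1.06) and the macrophage gene Lyz2 (0.52), and the fall was the fibroblast receptor Pdgfra (-0.74). The endothelial genes Pecam1 (0.07, adjusted p = 0.789) and Cdh5 (-0.01, adjusted p = 0.982) did not pass the test, and the leukocyte gene Ptprc stayed between 3.22 and 3.66 in all 6 arrays. Kdr, Tek, Insm1 and Notch1 kept their calls without any 1 array, and the other markers named as changed lost theirs in at least 1 such fit. The part of these marker shifts in the results that follow was not tested.

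The comparison of N1ICD with control asks what an active Notch1 does to the expression of this pathway in neuroendocrine tumor cells. Of the 10 genes, 6 fell, 0 rose and 4 did not pass the test (limma adjusted p under 0.05 over all genes, termed a call below). The genes that fell were Chac1, Mthfd2, Shmt2, Psat1, Phgdh and Asns, which reached 60.5% to 70.9% of their control level. Atf4, Atf5, Ddit3 and Trib3 had lower means as well, at 78.4% to 86.9% of control. Among all 22180 genes 3.27% fell and 3.82% rose, 7.10% in either direction (848 higher and 726 lower, or 730 higher and 948 lower with equal array medians). The median log2 change was -0.50 over the 10 genes and -0.02 over all genes. In 9 of the 10 genes every N1ICD array lay below every control array, Ddit3 being the exception, and this held for 15.0% of all genes. The 10 genes were chosen with earlier results of these data known, so these shares describe the set and do not test it. In a bulk sample, fewer cells that express a gene and less of its RNA per cell cannot be told apart.

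**Figure D1:**
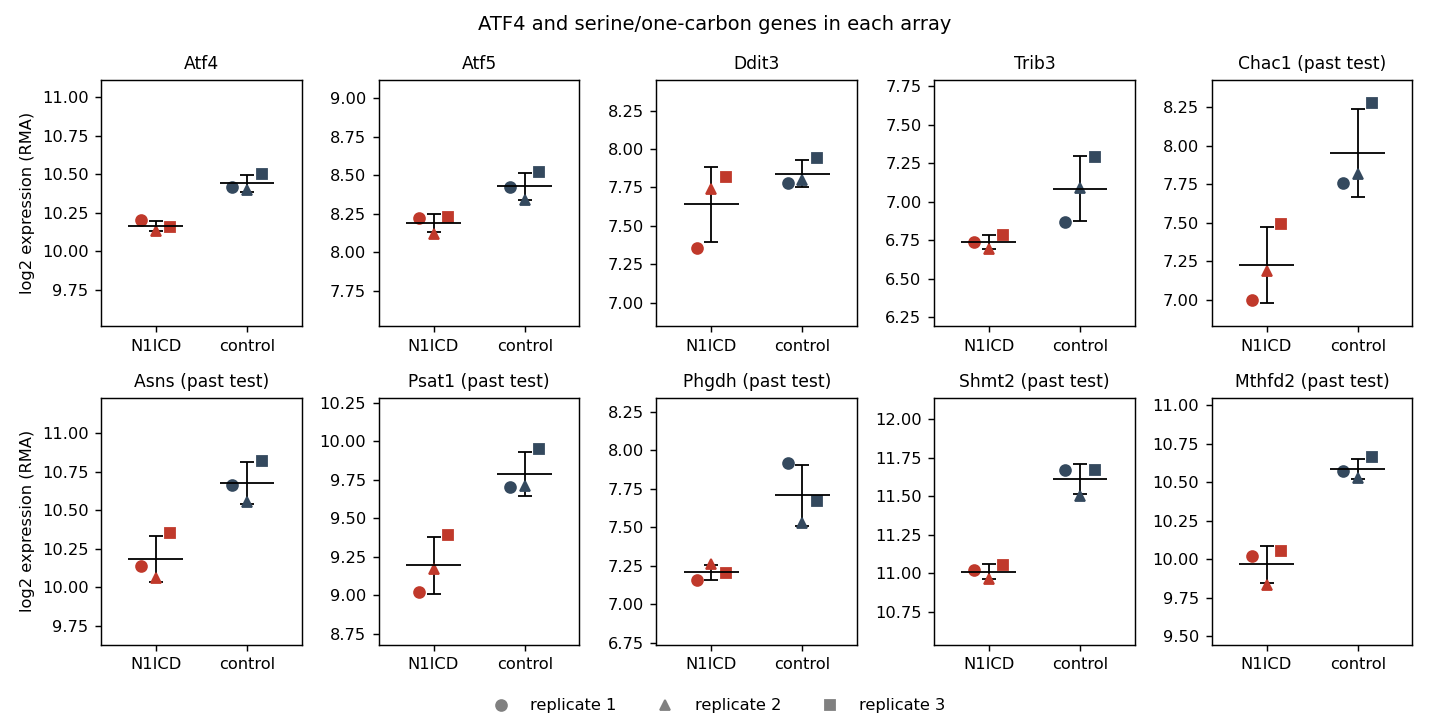
Log2 expression (RMA values, vertical axis, each panel spanning 1.6 log2 units) of the 10 genes in the 3 N1ICD arrays (red) and the 3 control arrays (dark blue). Marker shapes give the replicate number, the long bar the group mean and the whiskers the SD (n = 3). All N1ICD points lie below all control points in every panel but that of Ddit3, and the 6 genes past the test are marked in their titles.

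Atf4, the central factor, had 10.20, 10.13 and 10.16 in N1ICD cells, against 10.42, 10.40 and 10.50 in control cells. The groups did not overlap, and each varied little (SD 0.04 in N1ICD and 0.05 in control). The log2 change was -0.28 ± 0.09 SE, with an unadjusted 95% interval of -0.48 to -0.07, and it did not pass the test (limma adjusted p = 0.121). Atf4 did pass with the dimmer genes left out, which kept 11090 genes (adjusted p = 0.0352) and with an intensity trend and robust eBayes (adjusted p = 0.0223), at an unchanged log2 difference. These fits called 11.6% and 5.53% of the genes tested lower, against 3.27% in the main fit. Over the 13 alternatives its adjusted p ran from 0.0223 to 0.327.

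Atf5, a related factor that also acts in the mitochondrial stress response, had 8.22, 8.12 and 8.23 in N1ICD cells and 8.42, 8.34 and 8.52 in control cells. Its log2 change was -0.23 ± 0.10 (95% interval -0.45 to -0.01, adjusted p = 0.226). Ddit3, which encodes the pro-death factor CHOP, had 7.36, 7.74 and 7.82 in N1ICD cells, against 7.78, 7.80 and 7.94 in control cells. The third N1ICD array lay within the control range, the second just below it and the first further below, so the groups overlapped. The log2 change of Ddit3 was -0.20 ± 0.14 (95% interval -0.51 to 0.11, adjusted p = 0.48), and -0.06 without N1ICD replicate 1. Trib3, a pseudokinase induced by ATF4 and CHOP that feeds back on both, had 6.74, 6.69 and 6.78 in N1ICD cells and 6.87, 7.09 and 7.29 in control cells. The control arrays were the more spread (SD 0.21, against 0.05 in N1ICD), and the log2 change of -0.35 ± 0.12 did not pass the test (95% interval -0.63 to -0.07, adjusted p = 0.147).

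Chac1, a gamma-glutamyl cyclotransferase that breaks down glutathione and a sensitive transcript of the ATF4 branch, had 7.00, 7.19 and 7.49 in N1ICD cells, against 7.76, 7.82 and 8.28 in control cells. The groups did not overlap, and within both the third replicate was highest and the first lowest. Chac1 fell by 0.72 ± 0.18 SE on the log2 scale (60.5% of control, adjusted p = 0.0471), the largest change of the 10. Asns, which makes asparagine from aspartate and glutamine, had 10.14, 10.06 and 10.35 in N1ICD cells and 10.66, 10.55 and 10.82 in control cells. It fell by 0.50 ± 0.12 (70.9% of control, adjusted p = 0.0432), again without overlap. Chac1 and Asns lost their calls without any 1 array except N1ICD replicate 3, with adjusted p up to 0.149 and 0.154, both without N1ICD replicate 2.

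Serine is made from a glycolytic intermediate in consecutive steps that start with Phgdh and Psat1. Phgdh had 7.16, 7.26 and 7.20 in N1ICD cells, against 7.92, 7.53 and 7.67 in control cells. It fell by 0.50 ± 0.12 (70.7% of control, adjusted p = 0.043), and its highest N1ICD value lay below its lowest control value. Psat1 had 9.02, 9.17 and 9.39 in N1ICD cells and 9.70, 9.71 and 9.95 in control cells. Psat1 fell by 0.59 ± 0.13 (66.4% of control, adjusted p = 0.0295). Phgdh kept its call without control replicate 2 only (adjusted p = 0.047) and lost it without each of the other 5 arrays, with adjusted p up to 0.113 without N1ICD replicate 1. With all arrays kept, Phgdh missed the threshold in 3 of the 7 alternative fits, with adjusted p of 0.0518 to 0.0752. Psat1 kept its call without N1ICD replicate 3 only (adjusted p = 0.0279) and reached 0.107 without N1ICD replicate 2.

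Shmt2 splits serine into glycine and a folate-bound carbon in the mitochondrion, and Mthfd2 oxidises that carbon unit in the next steps. Shmt2 had 11.02, 10.96 and 11.05 in N1ICD cells, against 11.67, 11.50 and 11.67 in control cells. Replicates of a group lay close together (SD 0.04 in N1ICD and 0.09 in control), and the groups were well apart. Shmt2 fell by 0.60 ± 0.09 (65.8% of control, adjusted p = 0.00751). Mthfd2 had 10.02, 9.83 and 10.05 in N1ICD cells and 10.57, 10.53 and 10.66 in control cells, a fall of 0.62 ± 0.10 (64.9% of control, adjusted p = 0.00888). These were the only genes of the 10 that passed the test without any 1 array (highest adjusted p 0.0382 for Shmt2 and 0.0425 for Mthfd2). Dropping a single control array (replicate 1, 2 or 3) left 2, 3 or 2 of the 10 genes lower, and dropping a single N1ICD array left 2, 2 or 5. Genes called lower among all 22180 went from 726 to 426, 339 or 308 without a control array. Without an N1ICD array they went to 473, 275 or 585. Genes called higher went from 848 to 666, 557 or 579 and to 709, 548 or 645 in the same order. The same fits were used for the lists below.

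**Figure D2:**
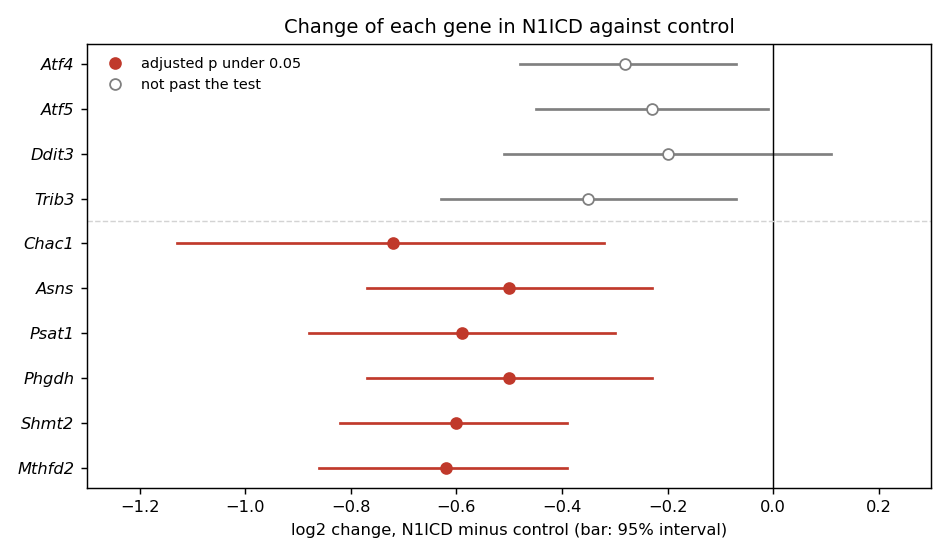
Log2 change (N1ICD minus control, horizontal axis) of the 10 genes with the unadjusted 95% interval from limma. The 4 regulators above the dashed line lie between -0.35 and -0.20 with none past the test (open circles), and the 6 enzymes below it between -0.72 and -0.50, all past the test (filled circles).

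Sorted by role, the 4 regulators had log2 changes of -0.35 to -0.20 and the 6 enzymes -0.72 to -0.50. Averaged over the enzymes, the log2 values stood -0.66, -0.64 and -0.47 from the control mean in N1ICD replicates 1, 2 and 3, and -0.01, -0.11 and 0.12 from it in the control replicates. For the regulators the averages were -0.32, -0.28 and -0.20 in N1ICD cells and -0.07, -0.04 and 0.11 in control cells. The 95% intervals of Trib3 (-0.63 to -0.07) and Phgdh (-0.77 to -0.23), the neighbours at the border of the sets, overlap, and the difference between the sets was not tested. The third replicate was the highest of its group for 8 of the 10 genes in N1ICD cells and for 8 of the 10 in control cells. Across the 6 arrays the 45 pairs of these genes had Pearson correlations of 0.49 to 0.99 with a median of 0.88. This describes arrays that share the group difference, and no test was made. Of the genes outside the set, those whose pattern over the 6 arrays was most like that of Atf4 were Adamts17, Selenoh, Phldb1, Mbp and Cplx1 (Pearson r 0.994 to 0.999). For Shmt2, which had the smallest p of the set, they were Pdcd2l, Slc39a8, 1700128E19Rik, Cd34 and Pim1 (Pearson r 0.998 to 1.0).

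The DNA letters of the response element are shown next for the genes of this set that carry it near their start, together with the cystine transporter Slc7a11 for contrast, since that gene rose (below). The core TGATGNAA was searched on both strands from 250 bases before to 50 after each RefSeq transcription start (build GRCm38.p6). It was present for 3 of the 10 genes, Asns, Chac1 and Trib3, and for 4.51% of the 27025 genes of the promoter table. Capitals mark the core, which appears as its reverse complement where it lies on the opposite strand. In Asns the core begins 23 bases before the start, in Chac1 193 bases before it, in Slc7a11 66 and 47 bases before it, and in Trib3 15 bases into the transcript.
Asns, chr6:7693210-7693289, minus strand: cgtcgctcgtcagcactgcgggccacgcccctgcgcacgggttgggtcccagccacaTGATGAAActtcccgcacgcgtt
Chac1, chr2:119351012-119351111, plus strand: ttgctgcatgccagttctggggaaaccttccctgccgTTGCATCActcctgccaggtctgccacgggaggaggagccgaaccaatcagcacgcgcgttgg
Trib3, chr2:152344028-152344057, minus strand: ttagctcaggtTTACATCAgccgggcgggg
Slc7a11, chr3:50443624-50443703, minus strand: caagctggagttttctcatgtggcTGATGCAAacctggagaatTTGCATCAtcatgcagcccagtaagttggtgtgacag
Of the genes shown, Asns and Chac1 fell, Trib3 did not pass the test and Slc7a11 rose. The letters GTGGGAA, the core bound by RBPJ, the DNA-binding partner of the Notch intracellular domain, were found on either strand in the window of 1 of the 10 genes, Asns, 23 bases into the transcript, and in 7.25% of all genes of the table. A match describes these letters in this window and is not evidence of binding.

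The enzymes around the set were described with 31 further genes of serine, glycine and folate one-carbon metabolism. In this list 6 fell, 2 rose and 23 did not pass the test (median log2 change -0.19), beside 3.27% lower and 3.82% higher of all genes. A lower mean was found for 23 of the list and for 54.5% of all genes. Mthfd1l, which releases formate from the mitochondrial folate pathway, had 8.14, 7.98 and 8.30 in N1ICD cells, against 8.98, 8.88 and 9.12 in control cells. It fell by 0.86 ± 0.12 (55.2% of control, adjusted p = 0.00379), a call kept without any 1 array. The cytosolic counterparts Shmt1 (-0.53 ± 0.10) and Mthfd1 (-0.43 ± 0.10) fell, and so did Gart (-0.50 ± 0.10) and Atic (-0.44 ± 0.10), which use formyl-folate in purine synthesis. Shmt1 and Gart kept their calls without N1ICD replicate 3 only (highest adjusted p 0.0802 and 0.0818, both without N1ICD replicate 2), while Mthfd1 and Atic lost theirs without each of the 6 arrays (highest 0.142 and 0.13). Psph, the last enzyme of serine synthesis, had a log2 change of -0.47 ± 0.12 (adjusted p = 0.0569), and the mitochondrial formyl-folate enzyme Aldh1l2 -0.52 ± 0.14 (adjusted p = 0.0612). Each passed the test in 5 of the 7 alternative fits that kept all arrays (adjusted p 0.0176 to 0.0472 for Psph and 0.0168 to 0.0493 for Aldh1l2). Gart missed it with the mean over probe sets (-0.37, adjusted p = 0.0696). Dropping control replicate 1, 2 or 3 left 2, 1 or 1 of the list lower, and dropping N1ICD replicate 1, 2 or 3 left 1, 1 or 4; the number that rose was 2 after dropping control replicate 1 and 1 otherwise.

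The transsulfuration enzymes, which carry sulfur from homocysteine to cysteine, moved in opposite directions. Cbs, the first of them, had 10.40, 10.30 and 10.21 in N1ICD cells, against 6.63, 6.55 and 6.25 in control cells. It rose 14.2-fold (3.83 ± 0.12, adjusted p = 1.4e-06), with the groups far apart. Cth, the second, had 5.17, 5.35 and 5.25 in N1ICD cells and 5.69, 6.21 and 6.25 in control cells, and fell by 0.79 ± 0.16 (adjusted p = 0.0208). Cth was dim, with all 6 values near or below the median over genes, and its call was kept without control replicate 1 only (highest adjusted p = 0.0758, without control replicate 2). Sfxn3, of a family of mitochondrial carriers to which the serine transporter Sfxn1 belongs, rose by 0.58 ± 0.12, and of the fits that dropped an array it kept its call only in that without control replicate 1 (highest adjusted p = 0.102, without control replicate 2). Sfxn1 itself had a log2 change of -0.17 (adjusted p = 0.412, chosen once its value was known).

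**Figure D3:**
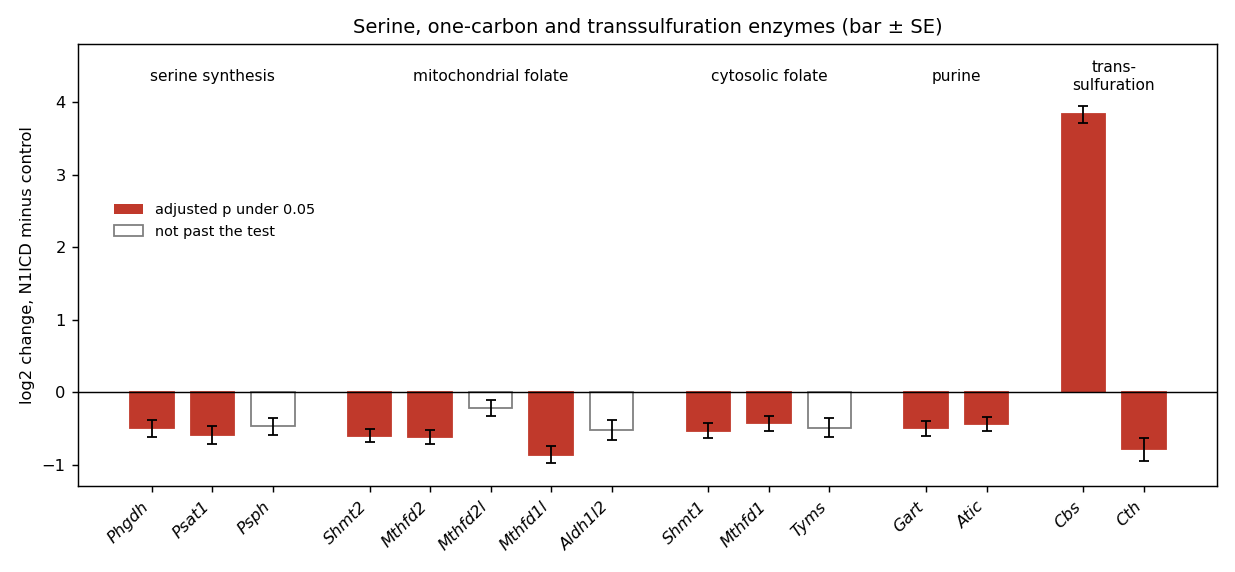
Log2 change (N1ICD minus control, vertical axis, bars from 0 with the SE of the fit) of enzymes ordered by step: serine synthesis, mitochondrial and cytosolic folate reactions, purine synthesis and transsulfuration. Of the enzymes drawn Cbs alone lies above 0, at 3.83, and the others lie between -0.86 and -0.22. Filled bars passed the test. Not every gene of the one-carbon list is drawn. Of its 31 genes 8 had a higher mean, Cbs among them, and 23 a lower mean. Sfxn3 (0.58, past the test) is among those left out.

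Other recognised ATF4 targets were mixed. Of 26 measured, 20 stayed short of the threshold, 4 rose and 2 fell (median log2 change -0.14), beside 3.82% higher and 3.27% lower of all genes. Besides Cbs and Cth, Stc2, a secreted stress glycoprotein, had 7.40, 8.17 and 7.91 in N1ICD cells, against 6.60, 6.61 and 6.95 in control cells, and rose 2.15-fold (1.10 ± 0.20, adjusted p = 0.014). Ddit4, which restrains mTORC1, rose 2.00-fold (1.00 ± 0.21, adjusted p = 0.0263), and Map1lc3b, an autophagosome protein, rose by 0.51 ± 0.09. Eif4ebp1, which holds back cap-dependent translation, fell by 0.56 ± 0.11 (adjusted p = 0.0199). Sesn2, a leucine sensor upstream of mTORC1, had a log2 change of -0.37 ± 0.15 (adjusted p = 0.217) and the mitochondrial carboxykinase Pck2 -0.20 ± 0.14 (adjusted p = 0.511). The call of Stc2 depended on 2 arrays, control replicate 2 and N1ICD replicate 3 (adjusted p up to 0.0539 when either was dropped). That of Map1lc3b depended on control replicates 2 and 3 and N1ICD replicate 2 (up to 0.0645), and that of Ddit4 on control replicates 1 and 2 and N1ICD replicates 2 and 3 (up to 0.0832). Eif4ebp1 stayed past the test only when N1ICD replicate 1 was the array dropped (otherwise up to 0.0832). Dropping control replicate 1, 2 or 3 left 3, 1 or 3 higher and 2, 0 or 0 lower, and dropping N1ICD replicate 1, 2 or 3 left 4, 2 or 2 higher and 1, 0 or 1 lower. With the dimmer genes left out 6 rose and 4 fell of the 24 still tested, beside 8.19% higher and 11.6% lower of all genes then tested. With an intensity trend 5 rose and 5 fell of 26, beside 4.73% higher and 5.53% lower.

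Amino acid transporters also went both ways, with 2 of 15 higher, 3 lower and 10 not past the test (median -0.13). The shares over all genes were 3.82% higher and 3.27% lower. Slc7a5, the light chain of the large neutral amino acid transporter LAT1, had 10.61, 10.29 and 10.62 in N1ICD cells, against 11.24, 11.02 and 11.34 in control cells, and fell by 0.69 ± 0.13 (adjusted p = 0.0191). Its heavy chain Slc3a2 had a log2 change of -0.05 ± 0.09 (adjusted p = 0.819). The cationic amino acid transporter Slc7a1 (-0.65 ± 0.11) and the neutral amino acid transporter Slc43a1 (-0.64 ± 0.11) fell. Slc7a11, the cystine importer, had 7.83, 8.07 and 8.21 in N1ICD cells, against 7.57, 7.26 and 7.42 in control cells, and rose 1.54-fold (0.62 ± 0.13, adjusted p = 0.0285). A dimmer probe set gave 0.15, and the mean over both probe sets did not pass the test (0.39, adjusted p = 0.146). Slc1a4, which carries serine, alanine and cysteine, rose 1.64-fold (0.71 ± 0.12). Slc7a1 and Slc1a4 lost their calls without N1ICD replicate 2 only (adjusted p = 0.0507 and 0.0512) and Slc43a1 without control replicate 2 only (0.0518). The call of Slc7a5 depended on control replicates 1 and 3 and N1ICD replicate 2 (adjusted p up to 0.0714 when one was dropped), and that of Slc7a11 on control replicates 2 and 3 and N1ICD replicates 2 and 3 (up to 0.105). Dropping control replicate 1, 2 or 3 left 2, 1 or 1 higher and 2, 2 or 2 lower, and dropping N1ICD replicate 1, 2 or 3 left 2, 0 or 1 higher and 3, 1 or 3 lower.

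Cytosolic aminoacyl-tRNA synthetases, which charge tRNAs and many of which ATF4 induces, all had lower means in N1ICD cells: 18 of 18, with log2 changes of -0.48 to -0.02 and a median of -0.31. Over all genes 54.5% had a lower mean, and the median was -0.02. This list too was chosen with earlier results of these data known. In 15 of the 18 synthetases every N1ICD array lay below every control array, against 15.0% of all genes. Of the 18, 3 fell, beside 3.27% of all genes: Tars (-0.47 ± 0.10, adjusted p = 0.0311), Iars (-0.46 ± 0.10, adjusted p = 0.0351) and Mars1 (-0.41 ± 0.10, adjusted p = 0.0453). With the dimmer genes left out 9 fell, beside 11.6% of the genes then tested, and with an intensity trend and robust eBayes 10 fell, beside 5.53%. Iars and Tars kept their calls without N1ICD replicate 3 only and Mars1 in no such fit (highest adjusted p 0.127, 0.12 and 0.16). Dropping any control array left 0 lower, and dropping N1ICD replicate 1, 2 or 3 left 1, 0 or 2, the last being Iars and Tars. The response element core was found for 4 of the 11 synthetases in the promoter table, Gars, Iars, Tars and Yars, and for 4.51% of all its genes. It was also found for 6 of 20 other ATF4 targets, none of them past the test. Of 10 transporters 2 had it, Slc7a11 and Slc1a4, which rose, and of 27 further one-carbon enzymes 0 had it.

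Upstream, 16 genes were measured: the eIF2 alpha kinases, a single subunit of eIF2, subunits of eIF2B and of the phosphatase that reverses the signal, and the kinase-linked genes Gcn1, Impact, Oma1 and Dele1. Eif2s1, the gene of eIF2 alpha itself, had no single-symbol probe set and was not measured. None of the 16 passed the test in limma (median -0.10, log2 changes -0.45 to 0.16). The kinases had log2 changes of 0.01 ± 0.09 for Eif2ak1 (HRI, the heme sensor), 0.13 ± 0.12 for Eif2ak2 (PKR, the double-stranded RNA sensor), -0.13 ± 0.13 for Eif2ak3 (PERK, the endoplasmic reticulum sensor) and 0.03 ± 0.11 for Eif2ak4 (GCN2, the sensor of uncharged tRNA). Ppp1r15a, the stress-induced phosphatase subunit GADD34, had -0.03 ± 0.10. At an unadjusted p under 0.05, 1 of the 16, Eif2b3 (-0.45, adjusted p = 0.0858, chosen once its value was known), was lower. The share of all genes at that unadjusted threshold is not given here. Eif2b3 passed the test with equal array medians, with the dimmer genes left out and with an intensity trend. Genes called lower in these fits were 948 of 22180, 11.6% and 5.53%, against 3.27% in the main fit. Kinase activity is not visible in mRNA levels.

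Among 16 bZIP partners and relatives of ATF4, 3 rose and 0 fell (median -0.09), beside 3.82% higher and 3.27% lower of all genes. Nfe2l2, the oxidative stress factor NRF2, had 10.15, 10.21 and 10.06 in N1ICD cells, against 9.32, 9.17 and 9.13 in control cells, and rose 1.91-fold (0.93 ± 0.10, adjusted p = 0.000997), a call kept without any 1 array. The AP-1 subunits Jun (0.74 ± 0.14, adjusted p = 0.0162) and Fos (0.69 ± 0.16, adjusted p = 0.0384) rose. The call of Jun depended on control replicate 2 and N1ICD replicates 2 and 3 (adjusted p up to 0.0694 when one was dropped), and Fos stayed past the test only when N1ICD replicate 1 was dropped (otherwise up to 0.142) and missed it with equal array medians (adjusted p = 0.0551). Atf3, itself a target of ATF4, had -0.10 ± 0.12 (adjusted p = 0.728), and the partners Cebpb and Cebpg -0.08 ± 0.10 (adjusted p = 0.731) and -0.23 ± 0.13 (adjusted p = 0.383). Dropping control replicate 1, 2 or 3 left 2, 1 or 2 of the list higher, and dropping N1ICD replicate 1, 2 or 3 left 3, 1 or 1.

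The chaperones and quality control genes of the other arms of the unfolded protein response, run by ATF6 and XBP1, were set beside the ATF4 genes. Of 19, 18 stayed short of the threshold, 1 rose and 0 fell (median log2 change 0.09), and 16 had a higher mean. Of all 22180 genes 3.82% rose, 3.27% fell and 10098 had a higher mean. The 2 groups of arrays overlapped in 16 of the 19, beside 16392 of all genes. Hspa5, the main chaperone of the endoplasmic reticulum, had 10.03, 10.07 and 10.41 in N1ICD cells and 9.67, 10.09 and 10.30 in control cells. The groups overlapped (log2 change 0.15 ± 0.18, 95% interval -0.26 to 0.55, adjusted p = 0.722). The factor Xbp1 had a log2 change of -0.14 ± 0.10 (adjusted p = 0.53). The gene that rose was Sel1l, an adaptor of the HRD1 ubiquitin ligase in endoplasmic reticulum-associated degradation, with 11.32, 11.45 and 11.64 in N1ICD cells, against 10.01, 10.16 and 10.28 in control cells. Its rise was 2.50-fold (1.32 ± 0.12, adjusted p = 0.000446), and the ligase Syvn1 had 0.16 (adjusted p = 0.563, chosen once its value was known).

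**Figure D4:**
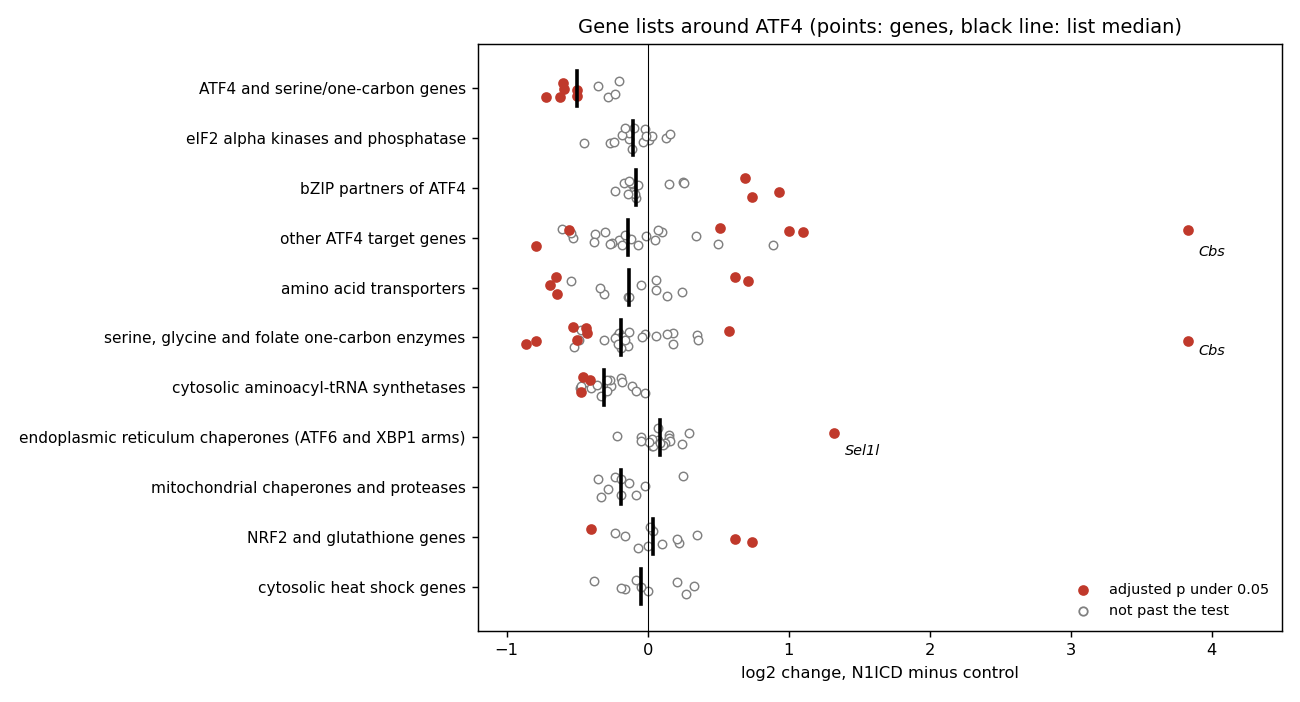
Log2 change (N1ICD minus control, horizontal axis) of each measured gene of 11 lists, filled where limma's adjusted p was under 0.05, with black lines at list medians. The medians lie at -0.50 for the 10 genes of this report, -0.31 for aminoacyl-tRNA synthetases and between -0.19 and 0.09 for the other lists, and Cbs (3.83) and Sel1l (1.32) stand apart to the right.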

How the data were processed

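Total RNA of 6 samples was measured, 1 array each. The authors deposited log2 values of the kind RMA makes; RMA is named without a version per the submitters' processing notes. Base 2, RMA's own, was taken, as the highest value of 14.09 exceeds any natural logarithm of a 16-bit intensity. Because RMA equalises the arrays, an overall gain or loss of RNA per cell is not visible, and changes of dim probe sets are compressed. The number of arrays limits precision.

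Of 41345 probe sets, 23521 carried 1 gene symbol in the platform annotation, 1814 several, and 16010 are not listed with a gene. The brightest single-symbol probe set by the mean over 6 arrays stood for each of 22180 genes, and 15 of 222 listed symbols had none. Groups follow the labels. Differences are N1ICD minus control, and the test was limma 3.58.1 (R 4.3.3, with lmFit and eBayes, two-sided, Benjamini-Hochberg over all genes, threshold 0.05). Each ± after a change is an SE. An exact two-sided permutation test over 20 assignments gave p = 0.1, the smallest possible, for the 9 genes without overlap and p = 0.3 for Ddit3.

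The 10 genes and 12 related lists were chosen with earlier results of these data known. Named were the 10 genes, Notch1, 20 pathway genes whatever their result and all list members past the test; Eif2b3, Sfxn1, Syvn1, Pecam1, Cdh5, Ptprc, Gars, Yars, Htra2, Hspa9, Nqo1, Hmox1, Gclm, Bag3 and Hspb1 were named after their values were seen. Alternatives were equal array medians, quantile normalization again, dimmer genes left out (11090 kept, all 10 genes among them), the mean over probe sets, an intensity trend with robust eBayes, array weights, a replicate block and leaving out each array. On simulated data with 22180 genes, 17.9%, 77.6% and 98.5% of genes changed by 0.5, 1 and 2 (log2) were called, and 3 of 132 calls were false. The simulation drew each gene independently and gave 132 calls, against 1574 in the data, so its shares need not carry over. Promoters are RefSeq's (GRCm38.p6).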

Additional observations from a re-analysis of the deposited data

How the results depend on the processing

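All 10 genes kept a lower mean in N1ICD cells under the alternatives run. Beside leaving out arrays, 65 of 70 results for the 10 genes stayed on their side of the threshold; the exceptions were Atf4, which passed the test in 2 fits, and Phgdh, which missed it in 3. The 10 genes counted 5 to 7 changed under these 7 alternatives and 2 to 5 with 1 array left out. Over all genes, 726 fell, against 1289 with the dimmer genes left out and 1227 with an intensity trend. Related lists moved as follows. The eIF2 list had 1 change with equal array medians, the dimmer genes left out or the trend, the other ATF4 targets 10, 10 and 11 with dimmer genes left out, the trend or the replicate block, and the synthetases 5, 9, 10 and 5 with equal medians, dimmer genes left out, the trend or array weights. The mitochondrial chaperones had 2 with dimmer genes left out or the trend, and the NRF2 and glutathione genes 1 with dimmer genes left out and 0 with the block. The cause of these moves was not tested.

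The replicate number as a block gave 1518 changed genes (814 higher, 704 lower), against 1574 without it, and 5 of the 10 genes, Phgdh being lost (adjusted p = 0.0752). The block also ended the calls of Slc7a11 (0.0642), Mthfd1 (0.0644), Sfxn3 (0.0501), Mars1 (0.051), Ggct (0.0536), Mgst1 (0.0564) and Ncam1 (0.0553), while Psph (0.0408) and Aldh1l2 (0.0297) passed under it. It changed no other call among the genes named whatever their result or for passing the test. The labels share replicate numbers 1 to 3 but do not say that they pair samples. Deviations from the group means of same-numbered arrays correlated at 0.232, 0.008 and 0.201. Those of differently numbered arrays of the 2 groups correlated at -0.235 to 0.058. Control replicate 2 had r = 0.008 with N1ICD replicate 2 and 0.058 with N1ICD replicate 3. These values do not settle whether the numbers pair samples, and the main fit did not take them as pairs.

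Without 1 array, 823 to 1230 genes changed, 548 to 709 higher and 275 to 585 lower, and the Notch1 change was 1.43 to 1.72. Counts of changed genes were 1 to 5 for the other ATF4 targets and the transporters, 2 to 5 for one-carbon enzymes, 1 to 3 for bZIP partners, 0 to 2 for synthetases and for NRF2 and glutathione genes, and 1 to 1 for endoplasmic reticulum chaperones. They were 0 to 0 for the eIF2, mitochondrial and heat shock lists, 1 to 2 for neuroendocrine markers and 2 to 3 for markers of other cells. Of 33 other named genes past the test, 7 stayed past it in all 6 such fits. Of all genes named by rule, whether past the test or not, 5 changed sign, and none of the 5 was past the test. With equal medians Eif2ak1 had -0.04 and Eif2ak4 -0.02. Without 1 array, Eif2ak1 ranged over -0.02 (without control replicate 2) to 0.05, and was at -0.00 without N1ICD replicate 3. The ranges were -0.03 (without control replicate 2) to 0.12 for Eif2ak4, -0.08 to 0.01 (without N1ICD replicate 3) for Ppp1r15a, -0.16 to 0.02 (without N1ICD replicate 1) for Atf3, and -0.03 (without control replicate 1) to 0.29 for Hspa5.

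With 3 arrays a group, a gene such as Atf4 or Trib3 that missed the threshold is not shown to be unchanged.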

Other observations

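Genes of glutathione metabolism and the NRF2 response, which protect against oxidants, were also measured. Of 13, 10 stayed short of the threshold, 2 rose and 1 fell (median log2 change 0.04), beside 3.82% higher and 3.27% lower of all genes. Mgst1, a membrane-bound glutathione transferase, had 6.90, 6.48 and 6.26 in N1ICD cells, against 5.74, 5.82 and 5.86 in control cells, and rose 1.67-fold (0.74 ± 0.16 SE, limma adjusted p = 0.0283). Slc7a11 was the other gene that rose. Ggct, a gamma-glutamyl cyclotransferase like Chac1, had 5.91, 5.93 and 5.87 in N1ICD cells and 6.26, 6.31 and 6.33 in control cells, and fell by 0.40 ± 0.09 (adjusted p = 0.031). The call of Ggct was gone in all 6 fits that dropped an array (adjusted p up to 0.119), and that of Mgst1 in those that dropped a control array or N1ICD replicate 2 (up to 0.084). Ggct was dim in all 6 arrays and Mgst1 in the control arrays, with values near or below the median over genes. With the dimmer genes left out 10 of the 13 were still tested, of which 1 rose and 0 fell. The NRF2 targets Nqo1 (0.35 ± 0.16, adjusted p = 0.283), Hmox1 (0.10 ± 0.14, adjusted p = 0.769) and Gclm (0.04 ± 0.09, adjusted p = 0.882) did not pass the test, and their groups overlapped.

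Of 10 mitochondrial chaperones and proteases, 0 passed limma's test (median -0.19), and 9 had a lower mean, beside 54.5% of all genes. At an unadjusted p under 0.05, 3 were lower. The protease Htra2 had a log2 change of -0.33 ± 0.10 (adjusted p = 0.0905) and the chaperone Hspa9 -0.28 ± 0.09 (adjusted p = 0.113). These passed with the dimmer genes left out or with an intensity trend, fits that called 11.6% and 5.53% of the genes tested lower. Of 9 cytosolic heat shock genes 0 passed limma's test (median -0.05), and at an unadjusted p under 0.05 2 were higher, Bag3 and Hspb1. The share of all genes at that unadjusted threshold is not given here, so the counts at it for both lists cannot be set against a background.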
